A study of Homo sapiens with 10 samples.

Results

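The genes described here are 36 that the endoplasmic reticulum (ER) uses to fold secreted and membrane proteins, to destroy those that fail to fold and to sense that load. They were listed by symbol, and each was read from the probe set with the highest mean over the 10 arrays among those that the array annotation ties to that symbol only. Of the 36 genes, 35 had such a probe set and all 35 were tested, of 19775 genes measured and 13243 tested in all, and SYVN1 is not analysed here. A gene was tested if its highest log2 intensity over the 8 colon cancer arrays was above 6.18, the median of all values. The 10 one-colour Affymetrix arrays stand for 10 culture conditions, 1 array each. Hke3, labelled as colorectal carcinoma cells, was cocultured with THP1 macrophages and treated with vitamin D3, cocultured with THP1 without vitamin D3, grown alone with vitamin D3, or grown alone. HCT116, a colorectal carcinoma line, was profiled in the same 4 conditions, and THP1, a monocytic leukaemia line labelled as macrophages, was profiled with vitamin D3 and alone. Vitamin D3 was given for 24 hours, and the cancer lines and THP1 were kept in different media with fetal bovine serum. Hke3 is a single clone derived from HCT116, so that a difference between the lines can also reflect the clone, and the labels do not say how THP1 cells were made into macrophages.

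Proteins entering the ER are bound by the HSP70 chaperone BiP and its cofactors, by the sugar-binding chaperones calnexin and calreticulin, and by disulfide isomerases that pair their cysteines. Proteins that do not fold are pulled back to the cytosol and destroyed, a route called ER-associated degradation (ERAD). When unfolded proteins build up, the membrane sensors IRE1, PERK and ATF6 start the unfolded protein response: IRE1 splices the XBP1 messenger, PERK slows translation and raises ATF4, and ATF6 is cut to release a transcription factor, and together these raise chaperone and ERAD genes.

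ATF6 and XBP1 act on the ER stress response element (ERSE), a CCAAT box and the letters CCACG 9 bases apart, and on the shorter ERSE-II, ATTGG and CCACG 1 base apart. Promoters from 250 bases before to 50 bases after the start site, from RefSeq on GRCh38.p14, were found for 33 of the 36 genes, and both motifs were searched on both strands. ERSE lay in the promoters of 8 of 33 genes (24.2%), against 25 of all 27305 genes (0.092%), and ERSE-II in 3 of 33 (9.1%), against 19 of all genes (0.07%). Of these 11 genes, 6 passed the coculture test in HCT116, beside 8 of the 21 tested members whose promoters hold neither motif. Of all 13243 genes tested, 2116 passed it. The motif shares describe a list chosen for roles that include the unfolded protein response, and are not a test of the motifs. The 13 matches of the 11 genes follow, read on the strand that carries the motif, with its fixed letters in capitals.
HSPA5 (chr9:125241391-125241409, minus strand): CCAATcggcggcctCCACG
HSP90B1 (chr12:103930216-103930234, plus strand): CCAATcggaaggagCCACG
HSP90B1 (chr12:103930321-103930339, minus strand): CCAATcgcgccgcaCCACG
CALR (chr19:12938384-12938402, minus strand): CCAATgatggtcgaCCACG
CANX (chr5:179698778-179698796, plus strand): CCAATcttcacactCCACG
PDIA6 (chr2:10812853-10812871, minus strand): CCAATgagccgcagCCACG
CRELD2 (chr22:49918554-49918572, minus strand): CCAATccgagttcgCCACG
XBP1 (chr22:28800603-28800621, minus strand): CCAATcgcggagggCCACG
SERP1 (chr3:150546710-150546728, plus strand): CCAATtcgctgtctCCACG
HYOU1 (chr11:119057274-119057284, plus strand): ATTGGaCCACG
HYOU1 (chr11:119057380-119057390, plus strand): ATTGGaCCACG
SDF2L1 (chr22:21642114-21642124, minus strand): ATTGGtCCACG
HERPUD1 (chr16:56932025-56932035, plus strand): ATTGGgCCACG

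The UPRE core TGACGTGG, a shorter site of XBP1 and ATF6, was found in 1 of the 33 promoters, that of HYOU1, where it overlaps an ERSE-II, against 0.927% of all genes. TGATGNAA, the element of ATF4 and C/EBP factors, lay in 2 of the 33 (6.1%), HERPUD1 and CREB3L2, against 4.457% of all genes. The 250 bases before the start site are shown for 4 genes, read on the gene's strand with ERSE and ERSE-II in capitals. HERPUD1 and HSPA5 carry an element and were higher with coculture in HCT116, SDF2L1 carries one and was lower with coculture in both lines, and SEL1L holds neither motif in this window and was higher with coculture in HCT116.
HERPUD1 (chr16:56931892-56932141, plus strand): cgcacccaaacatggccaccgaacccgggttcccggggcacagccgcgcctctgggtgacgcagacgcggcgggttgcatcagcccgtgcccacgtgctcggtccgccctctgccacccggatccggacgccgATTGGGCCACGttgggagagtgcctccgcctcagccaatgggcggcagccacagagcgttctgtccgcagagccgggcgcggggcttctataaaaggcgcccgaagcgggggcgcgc
HSPA5 (chr9:125241344-125241593, minus strand): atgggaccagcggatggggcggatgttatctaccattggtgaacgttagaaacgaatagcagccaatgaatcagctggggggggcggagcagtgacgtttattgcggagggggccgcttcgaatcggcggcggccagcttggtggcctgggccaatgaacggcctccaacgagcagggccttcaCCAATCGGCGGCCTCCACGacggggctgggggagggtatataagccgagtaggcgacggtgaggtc
SDF2L1 (chr22:21642052-21642301, plus strand): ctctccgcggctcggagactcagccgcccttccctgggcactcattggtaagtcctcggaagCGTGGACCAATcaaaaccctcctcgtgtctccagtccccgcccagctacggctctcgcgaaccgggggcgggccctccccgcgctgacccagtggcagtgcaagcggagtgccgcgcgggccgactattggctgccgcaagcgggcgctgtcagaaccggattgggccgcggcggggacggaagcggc
SEL1L (chr14:81533854-81534103, minus strand): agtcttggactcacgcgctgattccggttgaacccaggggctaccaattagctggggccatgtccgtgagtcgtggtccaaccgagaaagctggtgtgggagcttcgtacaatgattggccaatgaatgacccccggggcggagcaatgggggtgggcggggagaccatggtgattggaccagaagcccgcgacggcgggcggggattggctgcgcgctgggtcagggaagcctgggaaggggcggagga

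The colon cancer arrays carried few macrophage transcripts. Of 16 macrophage markers 14 were measured, and their median per array was 5.05 to 5.22 log2 in coculture, against 5.22 to 5.30 without it, and 11.48 to 11.75 in THP1. Their summed log2 level was 74.2 to 75.7 in coculture, against 73.9 to 75.2 without it, and 4 were bright enough to test, of which 0 passed for coculture (limma; 1 at an unadjusted p under 0.05). The 14 colon epithelial markers had a median of 7.18 to 7.36 log2 in coculture, against 7.29 to 7.45 without it, and 6.01 to 6.03 in THP1, and 1 of the 11 tested, the epithelial transcription factor ELF3, rose with coculture (0.53 ± 0.12). SRGN, the proteoglycan serglycin, was higher in coculture in both lines, without overlap. In Hke3 it had 6.28 and 4.90 log2 in coculture with and without vitamin D3, against 4.38 to 4.72 without coculture. In HCT116 it had 4.37 to 4.42 in coculture, against 3.93 to 4.17 without it, and THP1 had 13.90 to 14.05. The source of the SRGN difference was not tested. The 3′ minus 5′ difference of the ACTB control probe sets, which rises as RNA degrades, was lower in coculture in both lines: 0.56 to 0.62 in cocultured Hke3, against 0.72 to 0.94 in Hke3 grown alone, and 0.16 to 0.23 in cocultured HCT116, against 0.25 to 0.30 in HCT116 grown alone. Its part in the coculture and line differences below was not tested.

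CYP24A1, the hydroxylase that breaks down vitamin D and is induced by its receptor, served as a check of the vitamin D3 labels. Without coculture it had 12.35 log2 with vitamin D3, against 10.89 without it, in Hke3, and 11.43 against 9.99 in HCT116. In coculture the order was the opposite, with 10.89 on the array labelled with vitamin D3, against 12.25 on the one labelled without it, in Hke3, and 9.70 against 10.68 in HCT116. The cause of this opposite order was not tested, and the vitamin D3 labels of the coculture arrays are in doubt. A line's mean with and without coculture covers both of its arrays and does not depend on them, and each coculture result below was also fitted without the vitamin D3 term.

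Coculture with THP1 went with higher ER folding and stress genes in HCT116 more than in Hke3. In Hke3, 1 of the 35 genes rose and 2 fell (limma adjusted p under 0.05, background 4.09% of 13243 genes higher and 3.06% lower), while in HCT116 12 rose and 2 fell (background 7.66% higher and 8.31% lower). The median log2 difference of the 35 was 0.03 in Hke3, with 21 above 0, and 0.10 in HCT116, with 28 above 0, beside medians over all genes tested of -0.01 in Hke3 and -0.02 in HCT116. The test of the difference between the lines called 0 of the 35 toward Hke3 and 7 toward HCT116 (background 1.87% toward Hke3 and 2.34% toward HCT116; 14 of the 35 at an unadjusted p under 0.05), with a median of -0.18, beside 0.02 over all genes. The 7 were CLGN, ATF6, HYOU1, HERPUD1, PDIA3, SEL1L and XBP1, and 6 of them were among the 12 that rose in HCT116. SDF2L1 was the 1 gene called in both lines, and it fell in both. In bulk arrays, a change in how many cells express a gene and a change in RNA per cell cannot be told apart.

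Each contrast within a line rests on 2 pairs of arrays, with an error pooled over both lines, and p-values measure the spread between these pairs, since no condition has replicates. The count of 3 called genes in Hke3 came to 0 without Hke3 with vitamin D3 or without cocultured Hke3 with vitamin D3, and to 1 without cocultured Hke3. In HCT116 the count of 14 called genes came to 3 without the array of HCT116 grown with vitamin D3, to 5 without HCT116 alone, to 3 without cocultured HCT116 with vitamin D3 and to 7 without cocultured HCT116, and stayed at 12 or 13 without any 1 Hke3 array. CLGN, SEL1L and ATF6 were called in all 8 of these fits, and without the vitamin D3 term the same 14 were called. Of the 7 differences between the lines, 3 were called without Hke3 alone or Hke3 with vitamin D3, 4 without cocultured Hke3 with vitamin D3 and 5 without cocultured Hke3. Without HCT116 with vitamin D3 or HCT116 alone 3 were called, 2 without cocultured HCT116 with vitamin D3 and 4 without cocultured HCT116, with CLGN and ATF6 among them every time.

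**Figure D1:**
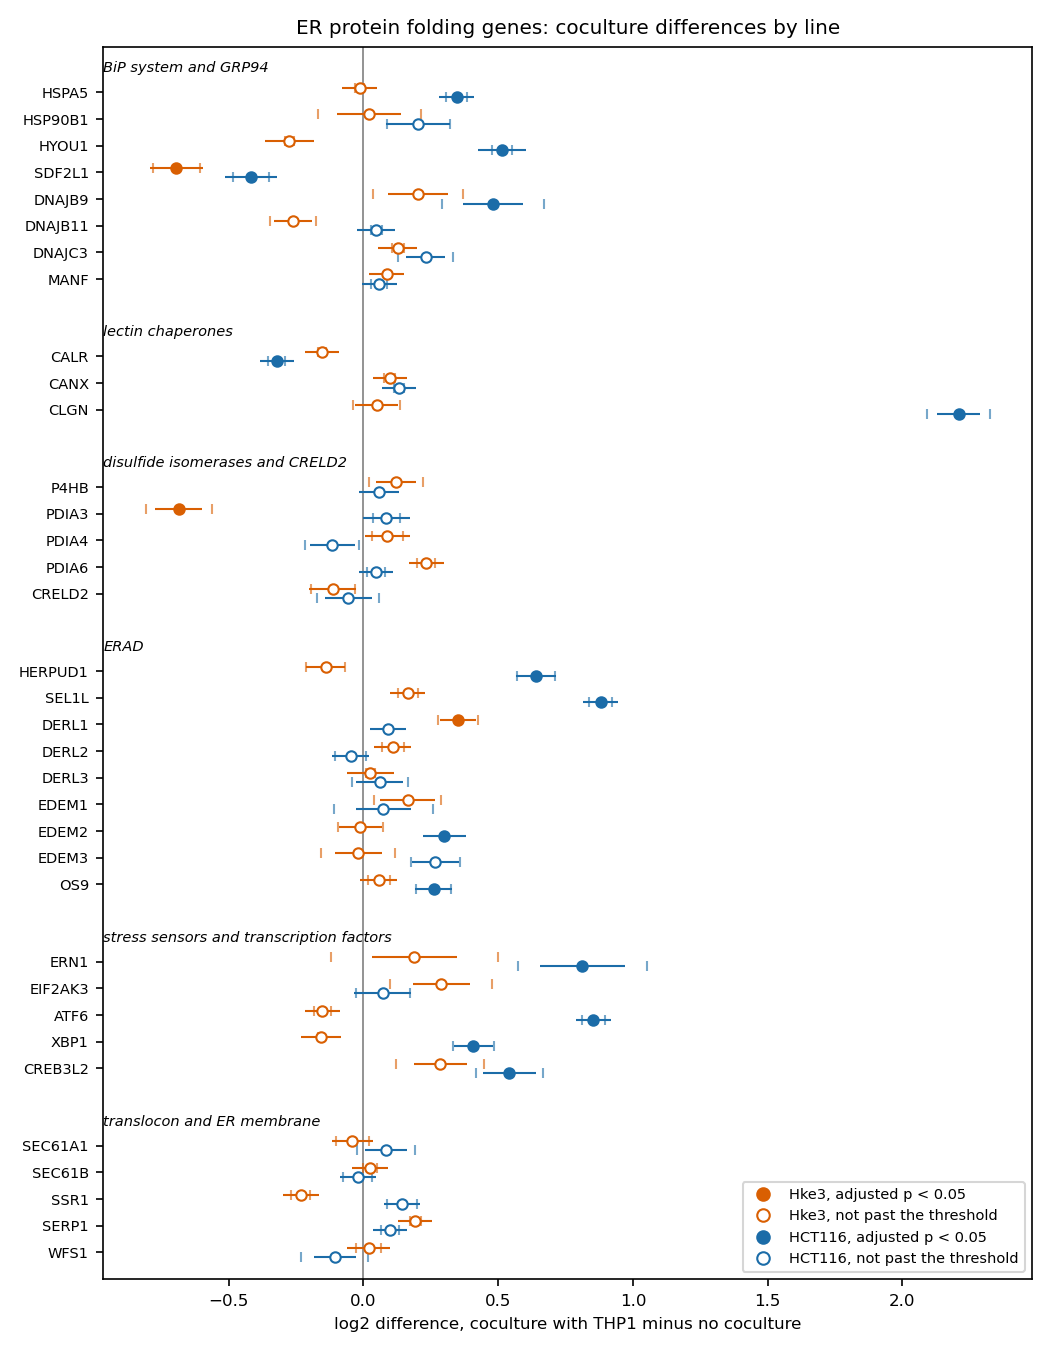
Log2 difference, coculture with THP1 minus no coculture, for the 35 genes by role, with Hke3 above HCT116 in each row. Circles with bars are the fit and its standard error, filled where the limma adjusted p is under 0.05, and ticks are both pairs of arrays; CLGN at 2.21 in HCT116 lies far right of the rest, and SDF2L1 lies left of 0 in both lines.

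Among the 5 sensors and stress transcription factors, 0 passed the limma test in Hke3 (2 at an unadjusted p under 0.05) and 4 rose in HCT116. ATF6, the sensor whose cut fragment activates chaperone genes, had 9.52 and 9.54 log2 in cocultured Hke3 with and without vitamin D3, against 9.64 and 9.72 in Hke3 grown alone with and without it. It had 10.47 and 10.44 log2 in cocultured HCT116 with and without vitamin D3, against 9.58 and 9.63 in HCT116 grown alone with and without it. Both cocultured HCT116 arrays lay above the other 6, and both cocultured Hke3 arrays lay just below Hke3 alone. The difference was -0.15 ± 0.07 in Hke3 (adjusted p = 0.202) and 0.85 ± 0.07 in HCT116 (1.81-fold, adjusted p = 0.00127), and the lines differed by -1.01 ± 0.09 (adjusted p = 0.00384). The 3 other ATF6 probe sets had the same signs, between -0.60 and -0.12 in Hke3, where the lowest was called, and between 0.42 and 0.63 in HCT116, where all 3 were.

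XBP1, whose spliced messenger makes the transcription factor of the IRE1 arm, had 9.40 and 9.34 log2 in cocultured Hke3 with and without vitamin D3, against 9.57 and 9.49 in Hke3 grown alone with and without it. It had 10.02 and 9.99 log2 in cocultured HCT116 with and without vitamin D3, against 9.54 and 9.66 in HCT116 grown alone with and without it. The cocultured arrays were the lowest in Hke3 and the highest in HCT116, without overlap in either line. XBP1 gave -0.16 ± 0.07 in Hke3, which did not pass (adjusted p = 0.233), and rose by 0.41 ± 0.07 in HCT116 (adjusted p = 0.0138), and the lines differed by -0.57 ± 0.10 (adjusted p = 0.0296). The difference between the lines was called in 7 of 17 alternatives and in 0 of the 8 fits that left out 1 array. With the mean of its probe sets neither that difference nor the HCT116 rise was called. Its second probe set was too dim to test. The array does not tell the spliced from the unspliced messenger. ERN1 encodes IRE1, the kinase and nuclease that splices XBP1, and had 8.60 and 8.21 log2 in cocultured Hke3 with and without vitamin D3, against 8.10 and 8.33 in Hke3 grown alone with and without it. It had 9.09 and 8.66 log2 in cocultured HCT116 with and without vitamin D3, against 8.04 and 8.09 in HCT116 grown alone with and without it. Cocultured HCT116 lay above the other 6 arrays, while the groups overlapped in Hke3. ERN1 gave 0.19 ± 0.16 in Hke3 (adjusted p = 0.508) and rose by 0.81 ± 0.16 in HCT116 (adjusted p = 0.017), where its 2 dimmer probe sets gave 0.29 and 0.16, neither called. The lines did not differ past the threshold for ERN1 (-0.62 ± 0.22, adjusted p = 0.159).

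CREB3L2, an ER-membrane transcription factor related to ATF6, was the 1 gene of the 35 that rose with coculture over both lines. That call was lost with the other factors as a block (adjusted p = 0.0656) and with the mean of its probe sets. It had 9.59 and 9.58 log2 in cocultured Hke3 with and without vitamin D3, against 9.15 and 9.46 in Hke3 grown alone with and without it. It had 9.39 and 9.35 log2 in cocultured HCT116 with and without vitamin D3, against 8.72 and 8.93 in HCT116 grown alone with and without it. Coculture was higher in all 4 pairs, by 0.28 ± 0.10 in Hke3 (adjusted p = 0.127) and 0.54 ± 0.10 in HCT116 (adjusted p = 0.0143). The 1 other CREB3L2 probe set bright enough to test gave 0.16 in Hke3 and 0.07 in HCT116, neither called. With the mean of its probe sets the HCT116 call was also lost. EIF2AK3, which encodes the sensor PERK, did not pass in either line, at 0.29 ± 0.11 in Hke3 (adjusted p = 0.143) and 0.07 ± 0.11 in HCT116 (adjusted p = 0.695).

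**Figure D2:**
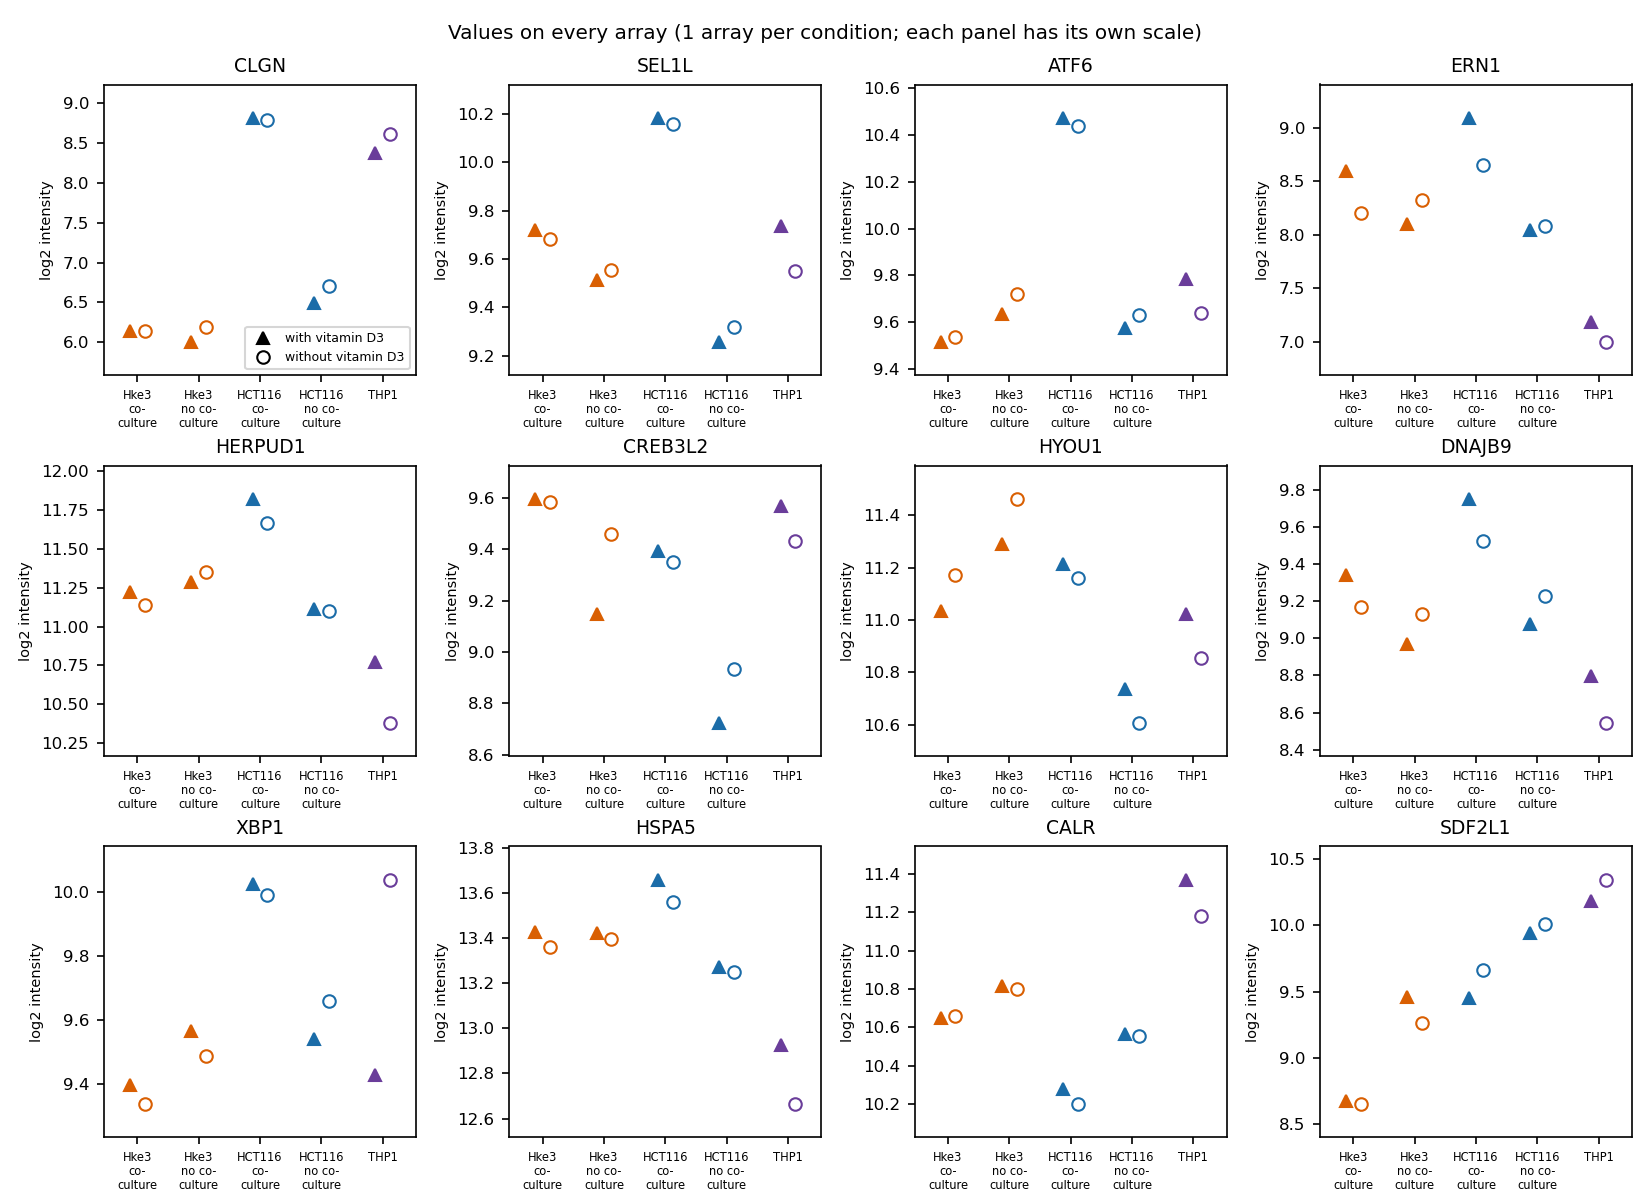
Log2 intensity (vertical axis, own scale per panel) of 12 genes on every array, by line and coculture, with THP1 at the right; triangles are arrays with vitamin D3 and circles arrays without it. For ATF6, SEL1L, CLGN and HSPA5 both cocultured HCT116 arrays lie above all 6 other colon cancer arrays.

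Of the 8 genes of the BiP system and the HSP90 family chaperone GRP94, 1 fell in Hke3, and 3 rose and 1 fell in HCT116. HSPA5, which encodes BiP, had 13.43 and 13.36 log2 in cocultured Hke3 with and without vitamin D3, against 13.42 and 13.40 in Hke3 grown alone with and without it. It had 13.66 and 13.56 log2 in cocultured HCT116 with and without vitamin D3, against 13.27 and 13.25 in HCT116 grown alone with and without it. The 2 cocultured HCT116 arrays were the highest of the 8, and the 4 Hke3 values lay between 13.36 and 13.43. HSPA5 gave -0.01 ± 0.06 in Hke3 (adjusted p = 0.915) and rose by 0.35 ± 0.06 in HCT116 (1.27-fold, adjusted p = 0.0147), and the lines differed by -0.36 ± 0.09, which missed the threshold (adjusted p = 0.07). Its second probe set gave -0.11 in Hke3 and 0.80 in HCT116, and there the rise and the difference of -0.91 between the lines were both called. HYOU1, a large HSP70-like cofactor that exchanges nucleotide on BiP, had 11.03 and 11.17 log2 in cocultured Hke3 with and without vitamin D3, against 11.29 and 11.46 in Hke3 grown alone with and without it. It had 11.22 and 11.16 log2 in cocultured HCT116 with and without vitamin D3, against 10.74 and 10.61 in HCT116 grown alone with and without it. Coculture was lower in both Hke3 pairs and higher in both HCT116 pairs. HYOU1 gave -0.27 ± 0.09 in Hke3, which did not pass (adjusted p = 0.112), and rose by 0.51 ± 0.09 in HCT116 (adjusted p = 0.0125), and the lines differed by -0.79 ± 0.13 (adjusted p = 0.0199).

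SDF2L1, an ER protein that works with the BiP cofactor DNAJB11, moved against the other called members of its group. It had 8.68 and 8.65 log2 in cocultured Hke3 with and without vitamin D3, against 9.46 and 9.26 in Hke3 grown alone with and without it. It had 9.45 and 9.66 log2 in cocultured HCT116 with and without vitamin D3, against 9.94 and 10.01 in HCT116 grown alone with and without it. Coculture was lower in all 4 pairs and the groups did not overlap within either line. SDF2L1 fell by 0.69 ± 0.10 in Hke3 (adjusted p = 0.00918) and by 0.42 ± 0.10 in HCT116 (adjusted p = 0.0285), and over both lines by 0.56 ± 0.08 (adjusted p = 0.0148). DNAJB9, a BiP cofactor that also restrains IRE1, gave 0.20 ± 0.11 in Hke3 (adjusted p = 0.308) and rose by 0.48 ± 0.11 in HCT116 (adjusted p = 0.0281). Its levels were 9.75 and 9.52 log2 in cocultured HCT116 with and without vitamin D3, against 9.08 and 9.23 in HCT116 grown alone. The other 4 did not pass in either line. In Hke3 the cofactor DNAJB11 gave -0.26 ± 0.07, DNAJC3, which inhibits PERK, 0.13 ± 0.07, the secreted survival factor MANF 0.09 ± 0.07, and HSP90B1, which encodes GRP94, 0.02 ± 0.12. In HCT116 DNAJB11 gave 0.05 ± 0.07, DNAJC3 0.23 ± 0.07, MANF 0.06 ± 0.07 and HSP90B1 0.20 ± 0.12.

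The lectin chaperones bind sugar-bearing proteins, and of the 3 listed 0 passed in Hke3 (limma; 1 at an unadjusted p under 0.05), and 1 rose and 1 fell in HCT116. CLGN, calmegin, a relative of calnexin best known from mouse testis, had 6.14 and 6.15 log2 in cocultured Hke3 with and without vitamin D3, against 6.004 and 6.19 in Hke3 grown alone with and without it. It had 8.82 and 8.80 log2 in cocultured HCT116 with and without vitamin D3, against 6.49 and 6.70 in HCT116 grown alone with and without it. The Hke3 values lay close to 6.18, the median of all values on the arrays, and both cocultured HCT116 arrays stood over 2 log2 above HCT116 alone. CLGN gave 0.05 ± 0.08 in Hke3 (adjusted p = 0.759), rose by 2.21 ± 0.08 in HCT116 (4.62-fold, adjusted p = 0.000104) and had the largest difference between the lines of the 35 genes, -2.16 ± 0.11 (adjusted p = 0.00164). CALR, calreticulin, the soluble lectin chaperone and calcium store of the ER, had 10.65 and 10.66 log2 in cocultured Hke3 with and without vitamin D3, against 10.82 and 10.80 in Hke3 grown alone with and without it. It had 10.28 and 10.20 log2 in cocultured HCT116 with and without vitamin D3, against 10.57 and 10.55 in HCT116 grown alone with and without it. Coculture was lower in all 4 pairs. CALR gave -0.15 ± 0.06 in Hke3, which did not pass (adjusted p = 0.187), fell by 0.32 ± 0.06 in HCT116 (adjusted p = 0.0179) and fell over both lines by 0.24 ± 0.06 (adjusted p = 0.0447). Its 2 other probe sets gave -0.28 and -0.27 in Hke3 and -0.64 and -0.64 in HCT116, where both were called. CANX, calnexin, passed in neither line, with 0.10 ± 0.06 in Hke3 (adjusted p = 0.387) and 0.13 ± 0.06 in HCT116 (adjusted p = 0.204).

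Of the 5 disulfide isomerases and partners, 1 fell in Hke3 and 0 passed in HCT116 (0 of 5 at an unadjusted p under 0.05 there). PDIA3, or ERp57, which works beside calnexin and calreticulin, had 11.26 and 11.29 log2 in cocultured Hke3 with and without vitamin D3, against 12.07 and 11.86 in Hke3 grown alone with and without it. It had 12.45 and 12.47 log2 in cocultured HCT116 with and without vitamin D3, against 12.32 and 12.43 in HCT116 grown alone with and without it. Both cocultured Hke3 arrays were the lowest of the 8. The difference was -0.69 ± 0.09 in Hke3 (adjusted p = 0.00679) and 0.09 ± 0.09 in HCT116 (adjusted p = 0.563), and the lines differed by -0.77 ± 0.12 (adjusted p = 0.0204). Its 2 other probe sets gave -0.12 and 0.17 in Hke3, neither called, so the fall rests on 1 probe set of 3. In Hke3 PDIA6 gave 0.23 ± 0.06, P4HB, which is protein disulfide isomerase itself, 0.12 ± 0.07, PDIA4 0.09 ± 0.08, and CRELD2, an ER stress-induced protein with isomerase-like motifs, -0.11 ± 0.09. In HCT116 PDIA6 gave 0.05 ± 0.06, P4HB 0.06 ± 0.07, PDIA4 -0.12 ± 0.08 and CRELD2 -0.06 ± 0.09, and none of these 4 passed in either line.

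Of the 9 ERAD genes measured, 1 rose in Hke3 and 4 rose in HCT116. SEL1L, the scaffold of the main ERAD ubiquitin ligase, had 9.72 and 9.68 log2 in cocultured Hke3 with and without vitamin D3, against 9.52 and 9.55 in Hke3 grown alone with and without it. It had 10.18 and 10.16 log2 in cocultured HCT116 with and without vitamin D3, against 9.26 and 9.32 in HCT116 grown alone with and without it. Coculture was higher in all 4 pairs, and both cocultured HCT116 arrays were above the other 6. SEL1L gave 0.16 ± 0.07 in Hke3 (adjusted p = 0.171) and rose by 0.88 ± 0.07 in HCT116 (1.84-fold, adjusted p = 0.00127), and the lines differed by -0.72 ± 0.09 (adjusted p = 0.0115). The 2 other SEL1L probe sets bright enough to test gave 0.51, which was called, and 0.07 in Hke3, against 0.86 and 0.83 in HCT116, both called. HERPUD1, a stress-induced membrane protein that brings the ligase together with its partners, had 11.22 and 11.14 log2 in cocultured Hke3 with and without vitamin D3, against 11.29 and 11.35 in Hke3 grown alone with and without it. It had 11.82 and 11.67 log2 in cocultured HCT116 with and without vitamin D3, against 11.11 and 11.10 in HCT116 grown alone with and without it. Both cocultured HCT116 arrays were the highest of the 8 and both cocultured Hke3 arrays lay below Hke3 alone. HERPUD1 gave -0.14 ± 0.07 in Hke3, which did not pass (adjusted p = 0.289), and rose by 0.64 ± 0.07 in HCT116 (1.56-fold, adjusted p = 0.00436), and the lines differed by -0.78 ± 0.10 (adjusted p = 0.0129). A dimmer HERPUD1 probe set gave 0.11 in HCT116, which was not called.

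DERL1, a derlin of the retrotranslocation channel, had 11.04 and 11.01 log2 in cocultured Hke3 with and without vitamin D3, against 10.62 and 10.73 in Hke3 grown alone with and without it. It had 11.35 and 11.35 log2 in cocultured HCT116 with and without vitamin D3, against 11.25 and 11.26 in HCT116 grown alone with and without it. Both cocultured Hke3 arrays were above both arrays of Hke3 alone, and all 4 were below HCT116. DERL1 rose by 0.35 ± 0.07 in Hke3 (adjusted p = 0.027), against 0.09 ± 0.07 in HCT116 (adjusted p = 0.405), but its 3 other probe sets lay between -0.10 and -0.02 in Hke3. EDEM2, which helps trim mannose from misfolded glycoproteins, gave -0.01 ± 0.08 in Hke3 (adjusted p = 0.95) and rose by 0.30 ± 0.08 in HCT116 (adjusted p = 0.0427). The lectin OS9, which hands such proteins to SEL1L, gave 0.06 ± 0.07 in Hke3 (adjusted p = 0.657) and rose by 0.26 ± 0.07 in HCT116 (adjusted p = 0.0403). Its other probe set gave 0.15 in HCT116, which was not called. The HCT116 call of EDEM2 was made in 8 of 16 alternatives and in 2 of the 8 fits that left out 1 array. That of OS9 was made in 5 of 16 and in 0 of the 8. The relatives EDEM1 and EDEM3 and the derlins DERL2 and DERL3 passed in neither line, with differences from -0.02 for EDEM3 to 0.16 for EDEM1 in Hke3 and from -0.05 for DERL2 to 0.27 for EDEM3 in HCT116.

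None of the 5 translocon and ER membrane genes passed for coculture in either line by limma (2 of 5 in Hke3 and 0 of 5 in HCT116 at an unadjusted p under 0.05). SSR1, a subunit of the complex beside the translocon, gave -0.23 ± 0.07 in Hke3 (adjusted p = 0.0819) and 0.14 ± 0.07 in HCT116 (adjusted p = 0.189), and SERP1, which associates with the translocon under stress, 0.19 ± 0.06 in Hke3 and 0.10 ± 0.06 in HCT116. The channel subunits SEC61A1 and SEC61B and WFS1, the wolframin membrane protein, lay between -0.04 and 0.02 in Hke3 and between -0.11 and 0.08 in HCT116.

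Other genes of the pathway were counted from lists chosen by function. Over all 13243 genes tested, 4.09% rose and 3.06% fell in Hke3, and 7.66% rose and 8.31% fell in HCT116. Between the lines 1.87% were called toward Hke3 and 2.34% toward HCT116. In the PERK, ATF4 and CHOP arm, with 11 genes tested, 4 fell in Hke3 and 0 rose there, 8 rose in HCT116 and 0 fell, and 7 differed between the lines. Whether PERK lay behind these changes was not tested. DDIT3, which encodes the stress factor CHOP, gave 0.09 ± 0.08 in Hke3 and 1.77 ± 0.08 in HCT116, a difference between the lines of -1.67 ± 0.11 (adjusted p = 0.0022). CHAC1, a glutathione-degrading enzyme, gave -0.51 ± 0.08 in Hke3 and 1.08 ± 0.08 in HCT116. SESN2, the stress protein sestrin 2, gave -0.55 ± 0.09 in Hke3 and 1.14 ± 0.09 in HCT116, and TRIB3, a pseudokinase induced by ATF4, -0.46 ± 0.09 in Hke3 and 1.09 ± 0.09 in HCT116. These 3 fell in Hke3, rose in HCT116 and differed between the lines. DDIT3 had 9.96 and 10.03 log2 in cocultured Hke3, against 9.96 and 9.83 in Hke3 alone, with and without vitamin D3. It had 10.51 and 10.53 log2 in cocultured HCT116, against 8.83 and 8.68 in HCT116 alone, with and without vitamin D3. Of 18 other folding enzymes, 2 rose and 1 fell in Hke3, and 5 rose and 0 fell in HCT116. The lines differed for 3 of them: UGGT2, a glucosyltransferase of the quality control cycle (-0.79 ± 0.13), DNAJC10, a disulfide reductase (-0.67 ± 0.12), and FKBP9, a prolyl isomerase (-0.50 ± 0.10). Over both lines QSOX1, a sulfhydryl oxidase, rose by 0.35 ± 0.09 (adjusted p = 0.0493).

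Genes that carry proteins into or out of the ER, and the rest of ERAD, were counted in the same way. Of 23 genes of translocation, signal peptidase and oligosaccharyltransferase, 0 passed for coculture in either line or between them by limma (6 in Hke3, 4 in HCT116 and 3 between the lines at an unadjusted p under 0.05). The smallest p between the lines belonged to the signal peptidase subunit SEC11A (-0.31 ± 0.09) and the oligosaccharyltransferase subunit RPN2 (-0.35 ± 0.12), and that over both lines to SSR2 (0.16 ± 0.05), a partner of SSR1. Of 20 other ERAD genes, 1 rose in Hke3, the glycanase NGLY1 (0.57 ± 0.07, adjusted p = 0.00525), which was chosen after its values were seen, 2 fell in HCT116 and 0 differed between the lines by limma (5 at an unadjusted p under 0.05). One of those 2, NPLOC4, a cofactor of the extracting ATPase, also fell over both lines (-0.22 ± 0.06, adjusted p = 0.0485). Of 9 sensor proteases and related factors, 0 passed in Hke3 (1 at an unadjusted p under 0.05) and 1 rose in HCT116, the ATF6-cutting protease gene MBTPS2 (0.26 ± 0.07, adjusted p = 0.0499), while the ATF6 relative ATF6B gave -0.20 ± 0.06 over both lines (adjusted p = 0.0833). Of 12 COPII coat genes, which bud cargo from the ER, 0 passed in Hke3 (4 at an unadjusted p under 0.05), and 1 rose and 2 fell in HCT116. Over both lines SEC24D rose (0.54 ± 0.11, adjusted p = 0.0304) and SAR1B fell (-0.27 ± 0.06, adjusted p = 0.0317).

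Promoter elements and coculture differences were set side by side for the 32 tested genes with a promoter sequence. Of the 11 with ERSE or ERSE-II, 0 rose and 1 fell in Hke3, and 4 rose and 2 fell in HCT116, with a median of -0.11 in Hke3 and 0.13 in HCT116. Of the 21 with neither, 0 rose and 0 fell in Hke3, and 8 rose and 0 fell in HCT116, with a median of 0.09 in Hke3 and 0.14 in HCT116. HSPA5, HYOU1, HERPUD1 and XBP1 are the 4 that carry an element and rose, and SDF2L1 and CALR the 2 that carry one and fell. The largest HCT116 rises, those of CLGN, SEL1L and ATF6, came from promoters with no match in this window, which says only that these letters are not there.

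**Figure D3:**
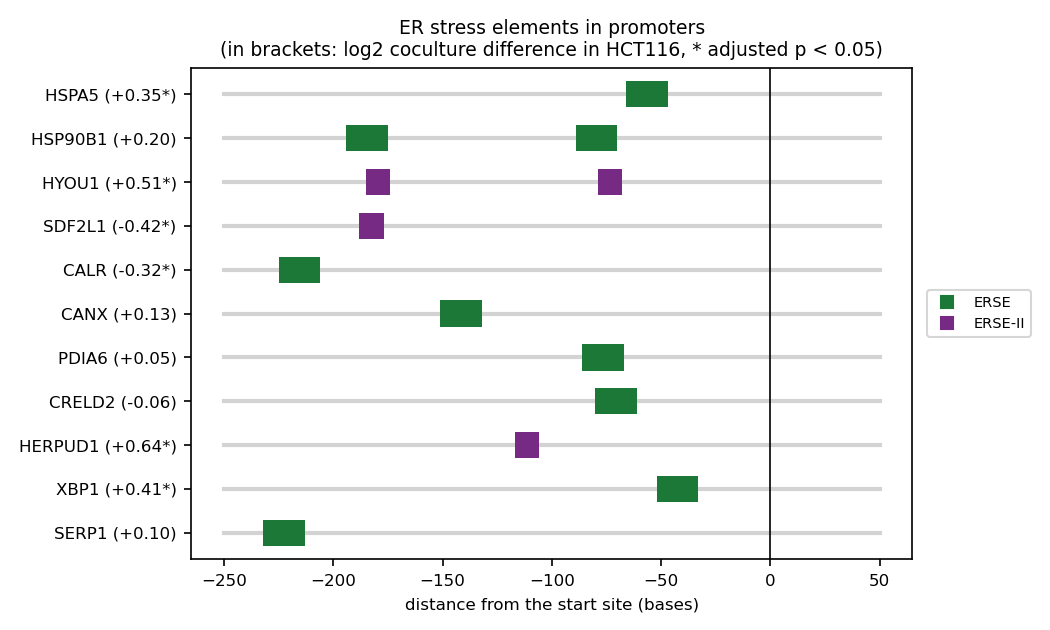
Position of ERSE (green) and ERSE-II (purple) in bases from the start site, in the promoters of 11 genes, with the log2 coculture difference in HCT116 beside each name. As drawn, matches run from -232 in SERP1 to -34 in XBP1, and the 6 genes marked as past the threshold are 4 higher and 2 lower. From other CANX start sites, not drawn, the same CANX match lies at -189 to -171 or at -9 to 9.

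Between the lines themselves, 10 of the 35 genes were higher in Hke3 and 6 were lower (background 24.8% of genes higher and 15.7% lower), averaged over coculture and vitamin D3. The share is near that background. Of the 5 disulfide isomerases and partners, 3 were higher in Hke3 (PDIA4, P4HB and CRELD2), PDIA3 was lower and PDIA6 did not pass. PDIA4 had 11.39 and 11.24 log2 in cocultured Hke3, against 10.59 and 10.55 in cocultured HCT116, with and without vitamin D3. Without coculture it had 11.25 and 11.21 in Hke3, against 10.60 and 10.76 in HCT116. All 4 Hke3 arrays lay above all 4 HCT116 arrays, by 0.65 ± 0.07 in the fit (adjusted p = 0.000312), and its second probe set gave 0.61.

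P4HB had 13.35 and 13.27 log2 in cocultured Hke3, against 12.62 and 12.72 in cocultured HCT116, with and without vitamin D3. Grown alone, the values were 13.13 and 13.25 in Hke3, against 12.56 and 12.65 in HCT116. Its brightest probe set was higher in Hke3 by 0.61 ± 0.06 (adjusted p = 0.000143) and its 2 others gave -0.26 and 0.63. CRELD2 was higher by 0.34 ± 0.06 (adjusted p = 0.00418), with 10.59 and 10.66 log2 in cocultured Hke3 against 10.19 and 10.43 in cocultured HCT116. Grown alone with and without vitamin D3, it had 10.78 and 10.69 in Hke3, against 10.36 and 10.37 in HCT116. The 4 Hke3 values of both genes lay above the 4 HCT116 values.

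EDEM1, which sends misfolded glycoproteins to ERAD, was also higher on all Hke3 arrays. It had 8.14 and 8.04 log2 in cocultured Hke3, against 7.72 and 7.52 in cocultured HCT116, and 7.85 and 7.996 in Hke3 alone, against 7.46 and 7.63 in HCT116 alone, with and without vitamin D3. The fit gave 0.43 ± 0.07 (adjusted p = 0.00287). DNAJC3 was higher in Hke3 by 0.38 ± 0.06 (adjusted p = 0.00151), with 10.08, 10.12, 9.97 and 9.97 log2 in Hke3 in coculture and alone, each with and without vitamin D3, against 9.83, 9.72, 9.50 and 9.59 in HCT116. Its brightest probe set did not overlap between the lines, but 2 of its 3 others had the opposite sign, the lowest at -0.22.

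Also higher in Hke3 were CALR by 0.33 ± 0.06, EDEM3 by 0.36 ± 0.08, CREB3L2 by 0.35 ± 0.08 and WFS1 by 0.18 ± 0.06. The WFS1 call (adjusted p = 0.047) was made in 6 of 17 alternatives and in 1 of the 8 fits without an array, that without HCT116 alone, and was lost in the block fit. SEC61A1, the channel of the translocon, had 10.72, 10.84, 10.82 and 10.82 log2 in Hke3 in coculture and alone, each with and without vitamin D3, against 10.44, 10.60, 10.47 and 10.40 in HCT116. This probe set was higher in Hke3 by 0.32 ± 0.06 (adjusted p = 0.00401), but its other probe set gave -0.64, also called, and their mean gave -0.16, so the direction of SEC61A1 depends on the probe set.

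Among the 6 genes lower in Hke3, CLGN (-1.58 ± 0.38) and PDIA3 (-0.80 ± 0.15) differed between the lines mainly in coculture, where the lowest pair was -2.67 for CLGN and -1.19 for PDIA3, and CLGN lay so near the median of all values in Hke3 that its size is approximate. The 2 other PDIA3 probe sets lay above 0, at 0.06 and 0.28. The line difference of SDF2L1 was -0.75 ± 0.08 (adjusted p = 0.000342) and that of XBP1 -0.36 ± 0.11 (adjusted p = 0.0355, below 0 in 3 of 4 pairs). XBP1 also differed mainly in coculture, with 9.40 and 9.34 log2 in Hke3, against 10.02 and 9.99 in HCT116, with and without vitamin D3. Without coculture it had 9.57 and 9.49 in Hke3, against 9.54 and 9.66 in HCT116. The XBP1 call was made in 11 of 17 alternatives and in 3 of the 8 fits without an array (those without Hke3 alone, Hke3 with vitamin D3 or HCT116 with vitamin D3), and not in the block fit. DERL1 gave -0.45 ± 0.07 (adjusted p = 0.00145), with all 4 Hke3 arrays under all 4 HCT116 arrays. SERP1 had 11.14, 11.06, 10.92 and 10.89 log2 in Hke3 in coculture and alone, each with and without vitamin D3, against 11.50, 11.44, 11.37 and 11.37 in HCT116. No Hke3 value reached the HCT116 values, the fit gave -0.42 ± 0.05 (adjusted p = 0.000548), and 2 of its 3 other probe sets had the same sign. Of the 16 genes called between the lines 11 have other probe sets bright enough to test. For 5 of these 11 genes all such probe sets had the same sign. The ACTB 3′ minus 5′ difference was above 0.56 on every Hke3 array and under 0.30 on every HCT116 array, and its part in these differences was not tested.

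**Figure D4:**
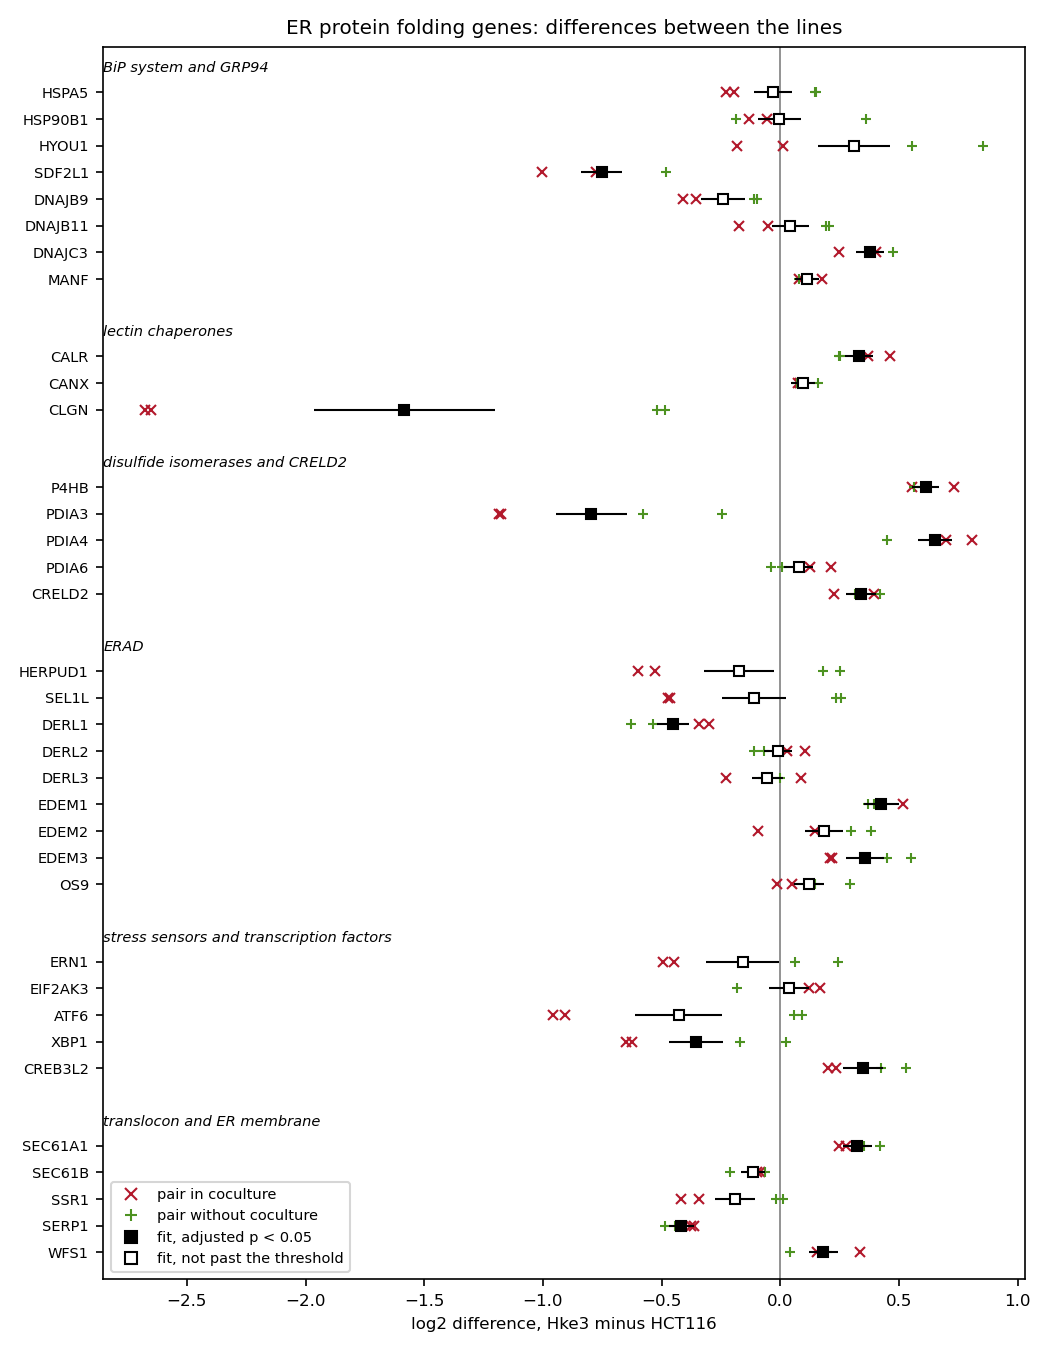
Log2 difference, Hke3 minus HCT116, for the 35 genes by role; squares with bars are the fit and its standard error, filled where the limma adjusted p is under 0.05, crosses are the pairs in coculture and plus signs the pairs without it. For ATF6, HERPUD1 and SEL1L the pairs in coculture lie left of 0 and those without coculture right of it, and for CLGN and PDIA3 the pairs in coculture lie farther left. Only the brightest probe set of each gene is drawn. The 2 other SEL1L probe sets bright enough to test gave line differences of -1.09 and -1.06, both called, so its position depends on the probe set.

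Averaged over both lines, coculture called 3 of the 35 genes: CREB3L2 rose by 0.41 ± 0.08 (adjusted p = 0.0278), and SDF2L1 and CALR fell (background 3.76% of genes higher and 4.05% lower). All 3 had 1 sign in all 4 pairs. With line and vitamin D3 combined into a block for each pair, SDF2L1 was called and CREB3L2 (adjusted p = 0.0656) and CALR (adjusted p = 0.0944) were not. With the mean of probe sets, SDF2L1 and CALR were called and CREB3L2 was not. The median over the 35 was 0.12, with 27 above 0, beside -0.02 over all genes, and 13 had an unadjusted p under 0.05. Without cocultured HCT116 with vitamin D3, or without HCT116 grown with vitamin D3, 0 of the 35 passed. Without HCT116 alone, cocultured HCT116, Hke3 with vitamin D3 or cocultured Hke3 with vitamin D3, 1 passed, SDF2L1.

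Vitamin D3 called 0 of the 35 genes in the cancer lines in either direction (background 0% of 13243 genes higher and 0% lower by limma; 0 of the 35 and 375 of all genes at an unadjusted p under 0.05). Differences ran from -0.12 for CREB3L2 to 0.14 for ERN1, and the 95% interval was -0.13 to 0.24 for HSPA5 and -0.13 to 0.11 for SEC61B. Within cultures grown alone, where CYP24A1 follows the labels, CREB3L2 gave -0.26 ± 0.10 (unadjusted p = 0.0365 by limma, adjusted p = 1), the 1 gene of the 35 at an unadjusted p under 0.05 there, and within cocultures 0.03 ± 0.10 (adjusted p = 0.997). ERN1 gave 0.41 ± 0.19 within cocultures (adjusted p = 0.926) and -0.13 ± 0.19 within cultures grown alone (adjusted p = 1). CYP24A1 itself gave 1.45 ± 0.16 within cultures grown alone and did not pass there either (adjusted p = 0.606 by limma). A count of 0 calls therefore does not show that vitamin D3 had no effect on these genes. Since CYP24A1 ran against the labels in coculture, the average over the 4 pairs may set arrays of opposite treatment against each other.

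THP1 expressed the same genes at other levels, given here as values since each THP1 condition has 1 array. Both THP1 arrays lay above all 8 colon cancer arrays for 14 of the 35 genes, below all 8 for 10, and within or across their range for 11 (background 22.8% of 13243 genes above and 37.8% below). EDEM1 had 10.36 and 10.45 log2 in THP1 with and without vitamin D3, against 7.46 to 8.14 on the colon cancer arrays. PDIA6 had 12.68 and 12.91, against 11.62 to 11.89, and SERP1 12.27 and 12.35, against 10.89 to 11.50. Among the lower genes, WFS1 had 6.01 and 6.30 in THP1, against 8.31 to 8.65, and HSPA5 12.93 and 12.67, against 13.25 to 13.66. ERN1 was lower too, with 7.18 and 6.997 in THP1, against 8.04 to 9.09. CLGN, dim in Hke3, had 8.37 and 8.62 in THP1, near the 8.82 and 8.80 of cocultured HCT116, while the macrophage markers had a median of 5.17 and 5.22 log2 in cocultured HCT116, against 5.30 and 5.29 in HCT116 alone, with and without vitamin D3. SRGN, 1 of these markers, had 4.37 and 4.42 in cocultured HCT116, against 4.17 and 3.93 in HCT116 alone. Where the CLGN signal in cocultured HCT116 came from was not tested.

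With vitamin D3, 1 of the 35 genes was more than 0.5 log2 higher in THP1 and 1 more than 0.5 lower (background 5.64% of 12717 genes higher and 3.38% lower), with no test possible. The PERK inhibitor DNAJC3 had 9.70 log2 with vitamin D3, against 8.96 alone, and XBP1 had 9.43, against 10.04. The median difference was 0.07 over the 35 genes, beside -0.01 over all genes, and 19 of the 35 lay above 0.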

How the data were processed

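RNA from 10 cultures was hybridised to 10 one-colour Affymetrix arrays, 1 per condition. The deposited values are log2 intensities made by the authors with RMA through affy, per the submitters' processing notes, with versions not given in the sources used here, and were used without further scaling. Of 54675 probe sets 41097 map to 1 gene and 1801 to several, and these 1801 were left out. The brightest probe set over the 10 arrays stood for each of 19775 genes, and 13243 with a maximum above 6.18 log2 on the 8 colon cancer arrays were tested. limma 3.58.1 in R 4.3.3 fitted line, coculture and vitamin D3 (4 residual degrees of freedom), and separate coculture terms per line for the contrasts within lines and their difference (3 degrees of freedom), with Benjamini-Hochberg adjustment over all genes and a threshold of 0.05. Differences are Hke3 minus HCT116 and coculture minus no coculture, ± the standard error. The script was tested on simulated data. The Hke3 array with vitamin D3 is untreated in 1 label and treated in 3, and was kept as treated.

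Values on every array are given for the 20 called members with the smallest unadjusted p in any contrast and for HSPA5, XBP1 and ERN1. Other lists have up to 4 called genes named, or the 2 with the smallest p. Members and lists were chosen with earlier results of these data known. Probe sets for HSP90B1, CALR, PDIA6, DERL3 and OS9 can cross-hybridise, and levels of different probe sets were not compared. Alternatives covered the filter, probe set choice, scaling, variance moderation, model terms and each array left out, and vitamin D3 within monocultures and within cocultures was added after the data were seen. Promoters came from RefSeq on GRCh38.p14 and were searched in Python 3.11.15, and plots were drawn with matplotlib 3.10.9.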

Additional observations from a re-analysis of the deposited data

Results flagged for a closer look

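The effect of coculture differed between the lines, by the interaction term in limma, for 7 of the 35 genes. Each value is the coculture difference in Hke3 minus that in HCT116, on the log2 scale: -2.16 for CLGN, -1.01 for ATF6, -0.79 for HYOU1, -0.78 for HERPUD1, -0.77 for PDIA3, -0.72 for SEL1L and -0.57 for XBP1. For 5 of the 7 the effects in Hke3 and HCT116 had opposite signs, but 0 of the 35 genes were called in both lines with opposite signs. The 2 other PDIA3 probe sets gave -0.31 and 0.02 between the lines and the dimmer HERPUD1 probe set gave -0.11, none of them called. CLGN and ATF6 passed in each of the 8 fits that left out 1 array. HERPUD1 and SEL1L passed in 4 of them, HYOU1 in 2, PDIA3 in 1 and XBP1 in 0.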

How the results depend on the processing

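With no replicates, precision rests on the number of arrays, and dim genes such as CLGN in Hke3 carry little signal. No paired analysis was possible because the labels give no replicate numbers, and pairing by the other factors is the block fit given here. Without a filter on dim genes the calls were 656 of all genes for coculture (1035 with it), 446 in Hke3 (946), 1261 in HCT116 (2116) and 277 between the lines (557). With trend and robust fitting 1599 genes were called in Hke3 and 1169 between the lines, and with a filter at the 75th percentile 973 between the lines. Among the 35 genes, coculture called 3, but 5 with the higher filter, with trend and robust fitting or without the vitamin D3 term, and 1 (SDF2L1) with the other factors as a block, which called 259 of all genes. In Hke3 it called 3, but 6 with the higher filter and 8 with trend and robust fitting. Leaving out 1 array gave 39 to 435 genes for coculture and 0 to 3 of the 35. In Hke3 it gave 118 to 676 genes and 0 to 3 of the 35, in HCT116 126 to 1870 genes and 3 to 13 of the 35, and between the lines 101 to 282 genes and 2 to 5 of the 35. Under cyclic loess 648 of 1076 coculture calls were higher (498 of 1035 as reported), and 1270 of 2201 in HCT116 (1015 of 2116). The line difference of SEC61A1 reversed to -0.16 with the mean of its probe sets. The cause of these changes was not tested. The vitamin D3 count was 0 of the 35 under each alternative run.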
